A study of Homo sapiens with 5 samples.

Results

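The genes described here are 10 oncofetal and imprinted genes of liver cancer: AFP, GPC3, IGF2, H19, DLK1, PEG10, IGF2BP1, IGF2BP3, LIN28B and HMGA2. They were found by symbol, either as a row of their own or inside a row that joins neighbouring genes, and they are 10 of 24544 gene names in the expression tables. All 10 had exactly 1 row in each library. IGF2 was listed only in a joint row with INS and INS-IGF2, and H19 in a joint row with its microRNA gene MIR675, so neither value can be divided between the names it joins.

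RNA was measured in SNU-387 and SNU-398, established lines of human hepatocellular carcinoma, after SALL4 was overexpressed or knocked down. SALL4 is a zinc finger regulator of embryonic stem cells and fetal liver that some liver cancers express again. The SNU-387 groups were empty vector, the long isoform SALL4A and the short isoform SALL4B, and the SNU-398 groups were untreated cells and a knockdown aimed at both isoforms. All cells were grown in RPMI medium with 10% fetal bovine serum, and each of the 5 groups held 1 library of total RNA, so no value below has a replicate error and no test was possible. The protocol field lists lentivirus and puromycin selection for every sample although the SNU-398 control is labelled untreated, and both samples titled SNU-398 carry SNU-387 as their cell line; groups here followed the titles. Whether each vector line was 1 clone or a pool was not stated in the labels. The knockdown was compared with untreated cells, so an effect of the vector and of selection cannot be told apart from that of the knockdown.

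Oncofetal genes are active in the embryo and fetal liver, are shut down around birth and return in many liver tumours, which is why proteins such as AFP and GPC3 serve as tumour markers. Imprinted genes such as IGF2, H19, DLK1 and PEG10 are read from 1 parental copy only. LIN28B blocks the maturation of the let-7 microRNAs, and let-7 in turn represses LIN28B itself, HMGA2 and the IGF2 mRNA-binding proteins, so these genes form a loop.

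The let-7 sequences are printed because 4 of the 10 genes carry their binding site in the 3′ UTR. H19, a non-coding RNA, was not searched for sites. Mature let-7 sequences of 4 family members, from RefSeq on GRCh38.p14, are shown 5′ to 3′ with bases 2 to 8, the seed that pairs with the mRNA, in capitals.
let-7a-5p: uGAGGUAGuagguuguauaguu
let-7b-5p: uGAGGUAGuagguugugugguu
let-7c-5p: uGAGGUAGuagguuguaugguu
let-7d-5p: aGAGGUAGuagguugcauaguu
All 9 mature 5p microRNAs of the let-7 and miR-98 family in that table shared the seed GAGGUAG. The matching site in an mRNA is CTACCTCA, searched on the sense strand of the 3′ UTR of each gene's principal transcript in GENCODE 29. It occurred 3 times in IGF2BP1, 2 times in LIN28B and once each in HMGA2 and IGF2BP3, and it was not found in the 3′ UTRs of AFP, GPC3, IGF2, DLK1 or PEG10. Among 19133 genes with a 3′ UTR, 3.26% held at least 1 such site, and among the 2884 with a 3′ UTR of 3000 bases or more 10.4% did. The first site of each gene is shown on GRCh38 with the site in capitals.
HMGA2, chr12:65963299-65963320, plus strand: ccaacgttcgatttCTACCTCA
LIN28B, chr6:105078813-105078834, plus strand: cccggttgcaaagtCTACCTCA
IGF2BP1, chr17:49051062-49051083, plus strand: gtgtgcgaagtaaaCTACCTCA
IGF2BP3, chr7:23311795-23311816, minus strand: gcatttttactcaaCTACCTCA
With the shorter site CTACCTC, which every CTACCTCA also contains, HMGA2, LIN28B and IGF2BP1 each had 4 matches and IGF2BP3 had 1. At least 1 was found in 8.58% of all genes and in 25.7% of those with a 3′ UTR of 3000 bases or more. A match is a description of the sequence, and mature microRNAs were not measured in these libraries.

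Values are FPKM, fragment counts scaled to transcript length and to the depth of the library. The SALL4A library was the deepest, at an estimated 25.2 M (mega) fragments, and the knockdown library the shallowest, at 7.7 M, so values near 1 FPKM were least precise in the knockdown and SALL4B (9.52 M) libraries. SALL4 itself was 0.117 FPKM with empty vector, 23.1 with SALL4A, 10.4 with SALL4B, 39.4 in untreated SNU-398 cells and 7.45 after knockdown, which follows the labels. Small nucleolar RNAs took 37.1% of summed FPKM in the knockdown library and 1.04% in the untreated one, against 7.14% to 13.2% in SNU-387. Across all gene names, the correlation of log2(FPKM + 1) ran from 0.932 to 0.977 within a titled line and from 0.829 to 0.857 across lines. Of 11 hepatocyte markers, 3 or fewer reached 1 FPKM in any library: albumin (ALB) was at most 1.28 FPKM and APOA2 was listed at 0 in all 5. Their summed level was 11.3 FPKM with empty vector, 7.18 with SALL4A, 41.9 with SALL4B, 2.39 in untreated SNU-398 cells and 1.59 after knockdown, and the SALL4B sum was mostly SERPINA1 (25.3 FPKM, 5.78 with empty vector) and APOA1 (14.9 FPKM). Summed levels of 5 endothelial markers were 2.66 FPKM with empty vector, 11.2 with SALL4A and 1.74 or less in the others, and those of 5 leukocyte markers were 5.63 to 43.8. Summed levels of 7 biliary or progenitor markers were 233 to 470 FPKM in SNU-387 and 19.99 to 36.7 in SNU-398. The SNU-387 sums were mostly CD24 (214, 205 and 437 FPKM with empty vector, SALL4A and SALL4B). EPCAM went the other way, at 2.47, 1.81 and 7.16 FPKM in SNU-387 and 33.7 and 14.7 in SNU-398. From empty vector to untreated SNU-398 cells, 4 of 5 tested markers were lower and 1 higher, where 45% of all genes were called.

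**Figure D1:**
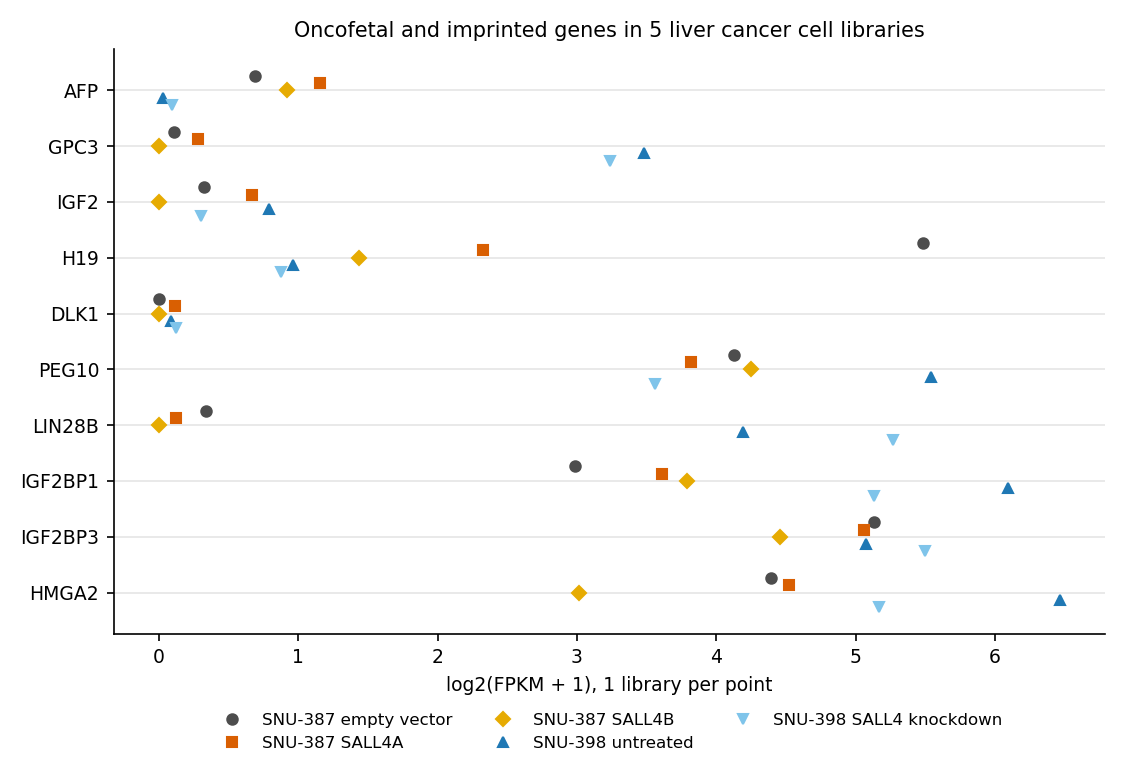
Level of each of the 10 genes in each of the 5 libraries, as log2(FPKM + 1) on the horizontal axis, with 1 point per library. Within the H19 row the empty vector point (43.7 FPKM) lies apart, to the right of the others. LIN28B and GPC3 are above 5 FPKM only in the SNU-398 libraries, and IGF2 and DLK1 are below 1 FPKM throughout.

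AFP and GPC3, the classic serum and surface antigens of liver cancer, were low or confined to 1 line. AFP (alpha-fetoprotein, the albumin-like carrier protein of fetal serum; ENSG00000081051, protein-coding, chr4:73431138-73456174 on GRCh38, plus strand) was 0.616 FPKM with empty vector, 1.23 with SALL4A, 0.889 with SALL4B, 0.0230 in untreated SNU-398 cells and 0.0684 after knockdown. It was therefore near 1 FPKM in SNU-387 and close to 0 in SNU-398. The steps between low FPKM values give the smallest whole numbers of fragments behind these values as 15, 59, 16, 1 and 1, in the same order. Per unit of depth, SALL4A over empty vector was 1.999, with an exact 95% interval of 1.12 to 3.80 that covers counting error only, and SALL4B over empty vector was 1.44 (0.668 to 3.13). On the log2(FPKM + 1) scale used for all genes, which understates changes of low genes, the SALL4A difference was 0.47, which is under 2-fold.

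The promoter of AFP is shown beside that of H19 because the SALL4 zinc finger cluster is known to bind the AT-rich motif ATATT, and these genes differ in how many copies lie near their start. Both windows run from 250 bases before to 50 after the start in RefSeq on GRCh38.p14, 5′ to 3′ on the gene's strand, with ATATT on either strand in capitals (AATATT holds overlapping matches on both strands).
AFP, chr4:73435971-73436270, plus strand: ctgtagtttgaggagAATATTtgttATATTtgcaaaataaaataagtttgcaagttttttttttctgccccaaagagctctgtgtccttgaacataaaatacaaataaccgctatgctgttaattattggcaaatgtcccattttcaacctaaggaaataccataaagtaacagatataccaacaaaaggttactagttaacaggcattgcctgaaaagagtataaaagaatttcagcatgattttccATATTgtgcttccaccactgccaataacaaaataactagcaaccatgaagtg
H19, chr11:2001217-2001516, minus strand: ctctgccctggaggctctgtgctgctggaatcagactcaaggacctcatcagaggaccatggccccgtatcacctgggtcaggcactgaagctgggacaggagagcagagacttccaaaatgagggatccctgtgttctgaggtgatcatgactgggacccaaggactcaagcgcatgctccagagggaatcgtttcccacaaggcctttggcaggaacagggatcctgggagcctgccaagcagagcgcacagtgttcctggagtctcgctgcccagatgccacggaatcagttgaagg
AFP held 4 matches in a window of 33% G and C, and H19 held 0 in a window of 57.7%. Among 35116 promoters of the same length, 23.0% held at least 1 match and 4.89% held 3 or more, with a median G and C content of 58.7%. The window of IGF2BP3 held 1 match, and those of 2 LIN28B starts held 0. No binding was measured, so a match says only that the letters are present.

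The neighbours and regulators of AFP gave no 2-fold difference on the log2(FPKM + 1) scale as deposited in the comparisons that changed SALL4. The counts were 0 of 3 tested genes with SALL4A, 0 of 3 with SALL4B and 0 of 6 with knockdown. Over all genes 5.51%, 7.99% and 17.9% were called. In FPKM itself, ZHX2 (3.11 untreated, 1.20 after knockdown) and ALB (1.28 and 0.370) were more than 2-fold lower. They were also the 2 lower with a common total FPKM (log2 ratios -1.36 and -1.05), where 33.0% of all genes were called. ZBTB20, a zinc finger repressor of AFP in adult liver, was 10.8, 7.14 and 9.15 FPKM in SNU-387 (empty vector, SALL4A, SALL4B) and 0.715 and 0.994 in SNU-398 (untreated, knockdown). FOXA1, a pioneer factor of liver genes, went the other way between the lines, at 0 with empty vector and 6.53 FPKM in untreated SNU-398 cells. CEBPA, a hepatocyte transcription factor, was 0.0313 with empty vector and 3.26 FPKM in untreated SNU-398 cells. HNF4A, a master regulator of hepatocytes, stayed below 1 FPKM in all 5 libraries.

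GPC3 (glypican-3, a heparan sulfate proteoglycan held on the cell surface by a lipid anchor; ENSG00000147257, protein-coding, chrX:133535745-133985895, minus strand) was 0.0774 FPKM with empty vector, 0.217 with SALL4A, 0 with SALL4B, 10.2 in untreated SNU-398 cells and 8.41 after knockdown. The SNU-398 libraries were both above every SNU-387 library. Between untreated and knockdown cells the log2 ratio was -0.24, or -0.85 with a common total FPKM, under 2-fold either way, where SALL4 was 39.4 and 7.45 FPKM.

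GPC3 was not the main glypican of SNU-387. GPC1 had the highest level there, at 32.9, 25.3 and 35.0 FPKM with empty vector, SALL4A and SALL4B. GPC6 was 16.1 FPKM with empty vector, 0.787 with SALL4A and 0.604 with SALL4B (log2 ratios -3.26 and -3.41), while GPC4 was 6.03, 15.8 and 28.0 (1.26 and 2.04). SULF2, which trims sulfate groups from heparan sulfate chains, was 99.998 FPKM with empty vector, 7.26 with SALL4A and 1.68 with SALL4B (-3.61 and -5.24). Of 8 tested genes of the glypican and heparan sulfate list, 1 was higher and 2 were lower in each overexpression library. Over all genes 5.51% were called with SALL4A and 7.99% with SALL4B. The called genes of the list were GPC4, GPC6 and SULF2 in both, and both ratios share the empty vector library. After knockdown 3 of 9 were lower and 0 higher, against 17.9% of all genes. They were GPC1 (9.95 to 3.81 FPKM), GPC6 (2.99 to 0.745 FPKM) and NDST1, a sulfotransferase of the chain (17.0 to 7.30 FPKM). With a common total FPKM SULF1 (log2 ratio -1.03) was lower too, where 33.0% of all genes were called.

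H19 was the imprinted gene with the largest differences between SNU-387 libraries. H19 (a maternally expressed long non-coding RNA and the host of miR-675; ENSG00000130600, chr11:1995176-2001470, minus strand) was 43.7 FPKM with empty vector, 4.02 with SALL4A, 1.70 with SALL4B, 0.945 in untreated SNU-398 cells and 0.838 after knockdown. Only the empty vector library was high. It was 10.9-fold lower with SALL4A (log2 ratio -3.16) and 25.7-fold lower with SALL4B (-4.05), leaving 9.20% and 3.89% of the empty vector level. For a transcript of 2348 bases these levels correspond to about 1233, 223 and 35.6 fragments, so counting error is small beside the difference. Both ratios rest on the same single empty vector library.

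The seeds of the microRNAs inside H19 differ from that of let-7, as the mature forms from RefSeq show, with bases 2 to 8 in capitals.
miR-675-5p: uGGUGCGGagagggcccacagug
miR-675-3p: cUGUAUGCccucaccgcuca
The gene MIR675 lies at chr11:1996759-1996831 inside H19 on the minus strand, and its own level cannot be read apart from H19 here.

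Several genes of mesenchymal cells were lower in the same SNU-387 libraries as H19. Of 8 fibroblast or stellate markers, 5 were at least 2-fold lower and 1 was higher with SALL4A (6 of 8, against 5.51% of all genes called), and 5 were lower and 0 higher with SALL4B (62.5%, against 7.99%). The summed level of the 8 was 914 FPKM with empty vector, 474 with SALL4A and 610 with SALL4B. COL1A2, a chain of type I collagen, was 326, 83.2 and 8.50 FPKM in that order, and COL3A1, the chain of type III collagen, was 141, 17.2 and 8.80. Others went the other way: ACTA2, smooth muscle actin, was 56.9, 168 and 65.4 FPKM, and lumican (LUM) was 263, 176 and 488. In SNU-398, where H19 was below 1 FPKM, COL1A2 was 0.695 FPKM untreated and 1.58 after knockdown, but COL3A1 was 127 and 131. In bulk RNA, fewer cells of a type and less RNA per cell cannot be told apart. The part of these genes in the H19 difference was not tested.

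The gene nearest in pattern to H19 was TCN1, which encodes a vitamin-binding protein, at 23.6 FPKM with empty vector, 1.39 with SALL4A, 0.444 with SALL4B, 0.0611 in untreated SNU-398 cells and 0.0910 after knockdown. Likeness was measured as the root mean square difference of log2(FPKM + 1) profiles centred on their own mean over the 5 libraries, among 11567 genes at 5 FPKM or more in their highest library. TCN1 differed from H19 by 0.103 and MEDAG by 0.228.

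IGF2, the paternally expressed neighbour of H19 and a fetal growth factor, was scarce in every library. The joint row (ENSG00000167244 for IGF2, protein-coding, chr11:2129112-2149603, minus strand) was 0.2497 FPKM with empty vector, 0.589 with SALL4A, 0 with SALL4B, 0.727 in untreated SNU-398 cells and 0.232 after knockdown. It stayed below 1 FPKM throughout and so entered no comparison. If every fragment came from the longest IGF2 transcript, the SNU-387 values would be about 17.4 fragments with empty vector, 80.8 with SALL4A and 0 with SALL4B. The antisense gene IGF2-AS was 0.0577 FPKM or less in all 5 libraries.

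Of 20 other genes of insulin-like growth factor signalling, 16 reached 1 FPKM in some library. IGF1, the related ligand, was 1.03, 1.52 and 0.396 FPKM in SNU-387 and 0.199 and 0.257 in SNU-398. IGF2R, which takes IGF2 to the lysosome, was 96.9, 90.3 and 108 FPKM in SNU-387 and 32.0 and 52.1 in SNU-398. IGF1R, the signalling receptor, was 3.38, 4.62 and 4.78 FPKM in SNU-387 and 16.7 and 10.3 in SNU-398. IGFBP5, a binding protein that holds the ligands outside cells, was 100.1 FPKM with empty vector, 28.99 with SALL4A and 17.2 with SALL4B (log2 ratios -1.75 and -2.47). It was the only gene of 16 tested that was 2-fold apart with SALL4A, against 5.51% of all genes. With SALL4B, IGFBP3 was higher (53.7 to 137 FPKM) and STC1, an inhibitor of the protease that frees IGF ligands, was lower (27.7 to 7.601 FPKM). In all, 1 of 16 was higher and 2 were lower with SALL4B, against 7.99% of all genes. After knockdown IGFBP4 was the only 1 of 10 tested genes at least 2-fold apart as deposited, at 7.16 FPKM untreated and 1.11 in knockdown cells. With a common total FPKM 3 of 11 were. Over all genes the shares were 17.9% as deposited and 33.0% with a common total FPKM.

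**Figure D2:**
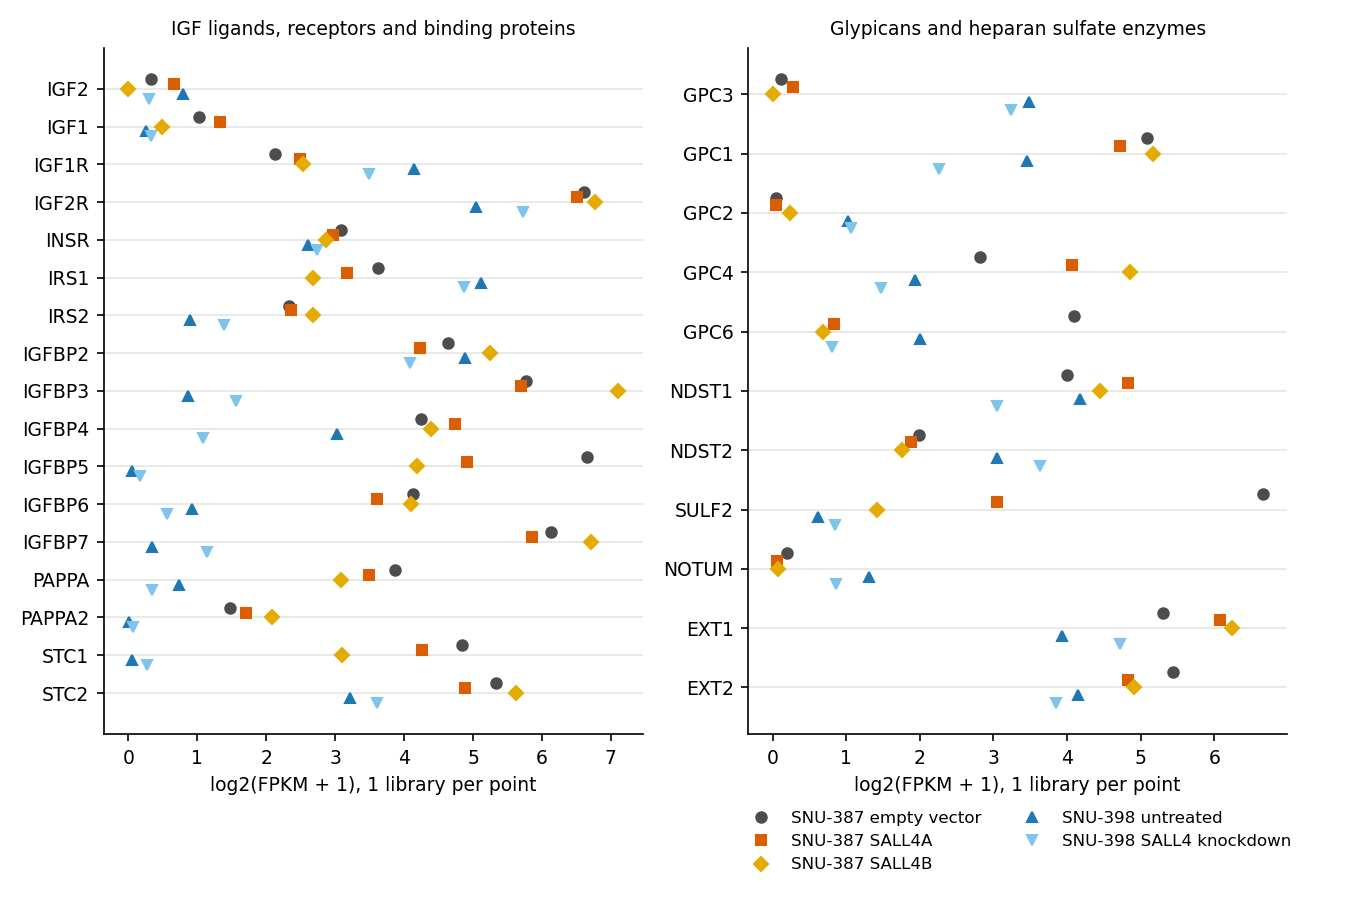
Levels of genes of insulin-like growth factor signalling (left) and of glypicans and heparan sulfate enzymes (right) in the 5 libraries, as log2(FPKM + 1), 1 point per library. IGF2 and, in SNU-387, GPC3 sit at the left edge, while IGFBP5, GPC6 and SULF2 are highest in the empty vector library.

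DLK1 (a paternally expressed, Notch-like membrane protein of hepatoblasts; ENSG00000185559, protein-coding, chr14:100725705-100738224, plus strand) was hardly detected. It was listed at 0 with empty vector, 0.0820 FPKM with SALL4A, 0 with SALL4B, 0.0601 in untreated SNU-398 cells and 0.0896 after knockdown. The smallest whole numbers of fragments behind these values are 0, 3, 0, 2 and 1. By the length of the longest transcript they would be about 9.45 with SALL4A, 6.30 in untreated SNU-398 cells and 3.15 after knockdown. A count of 0 allows up to 3.69 fragments at the 95% level. The maternally expressed RNAs of the same locus were low as well: the row of MEG3 was at most 0.761 FPKM, and MEG8 was listed at 0 in all 5 libraries.

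PEG10 differed with knockdown in SNU-398 and hardly with overexpression in SNU-387. PEG10 (a paternally expressed, retrotransposon-derived gene whose protein resembles a viral capsid; ENSG00000242265, protein-coding, chr7:94656325-94669695, plus strand) was 16.5 FPKM with empty vector, 13.1 with SALL4A, 18.0 with SALL4B, 45.5 in untreated SNU-398 cells and 10.8 after knockdown. The untreated SNU-398 library was the high one, and the knockdown library was the lowest of the 5. The level was 4.21-fold lower with knockdown (log2 ratio -1.98), at 23.8% of the untreated level, and the ratios with SALL4A and SALL4B were -0.31 and 0.12. SGCE, the imprinted gene that lies head to head with PEG10, was 72.6, 37.1 and 49.0 FPKM in SNU-387 and 17.4 and 9.49 in SNU-398 (knockdown log2 ratio -0.81), higher in all 3 SNU-387 libraries than in both SNU-398 libraries.

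Among the other imprinted genes, 34 rows were found and 10 of them stayed below 1 FPKM in all 5 libraries. With SALL4A 1 of 20 tested was higher (10.0% called in all, against 5.51% of all genes), the SNRPN and SNURF row, and 1 was lower, KCNQ1OT1. With SALL4B 4 of 20 were higher and 0 lower (against 7.99% of all genes): the SNRPN and SNURF row of the Prader-Willi locus (12.2 FPKM with empty vector, 41.8 with SALL4B), MEST (8.27 and 22.8), TFPI2 (8.56 and 21.5) and CDKN1C, a cell cycle inhibitor (7.74 and 17.2). After knockdown 2 of 22 were higher and 3 lower (22.7%, against 17.9% of all genes), and with a common total FPKM 0 of 21 were higher and 11 lower (52.4%, against 33.0%). As deposited, the lower ones were GRB10, an adaptor that dampens insulin signalling (12.5 to 3.10 FPKM), the PEG3 and ZIM2 row (36.9 to 12.5) and NAP1L5 (7.55 to 2.14); the higher ones were NNAT (2.70 to 7.94) and L3MBTL1 (1.26 to 3.53).

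Between the lines, 7 of 23 other imprinted genes were higher and 4 lower in SNU-398 (47.8%, near the 45% of all genes). The PEG3 and ZIM2 row was 0.119 FPKM with empty vector and 36.9 in untreated SNU-398 cells, NDN was 0.0444 and 27.7, and DLX5 was 1.03 and 156. PLAGL1 went the other way, at 8.18 FPKM with empty vector and 0.0961 in untreated SNU-398 cells.

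**Figure D3:**
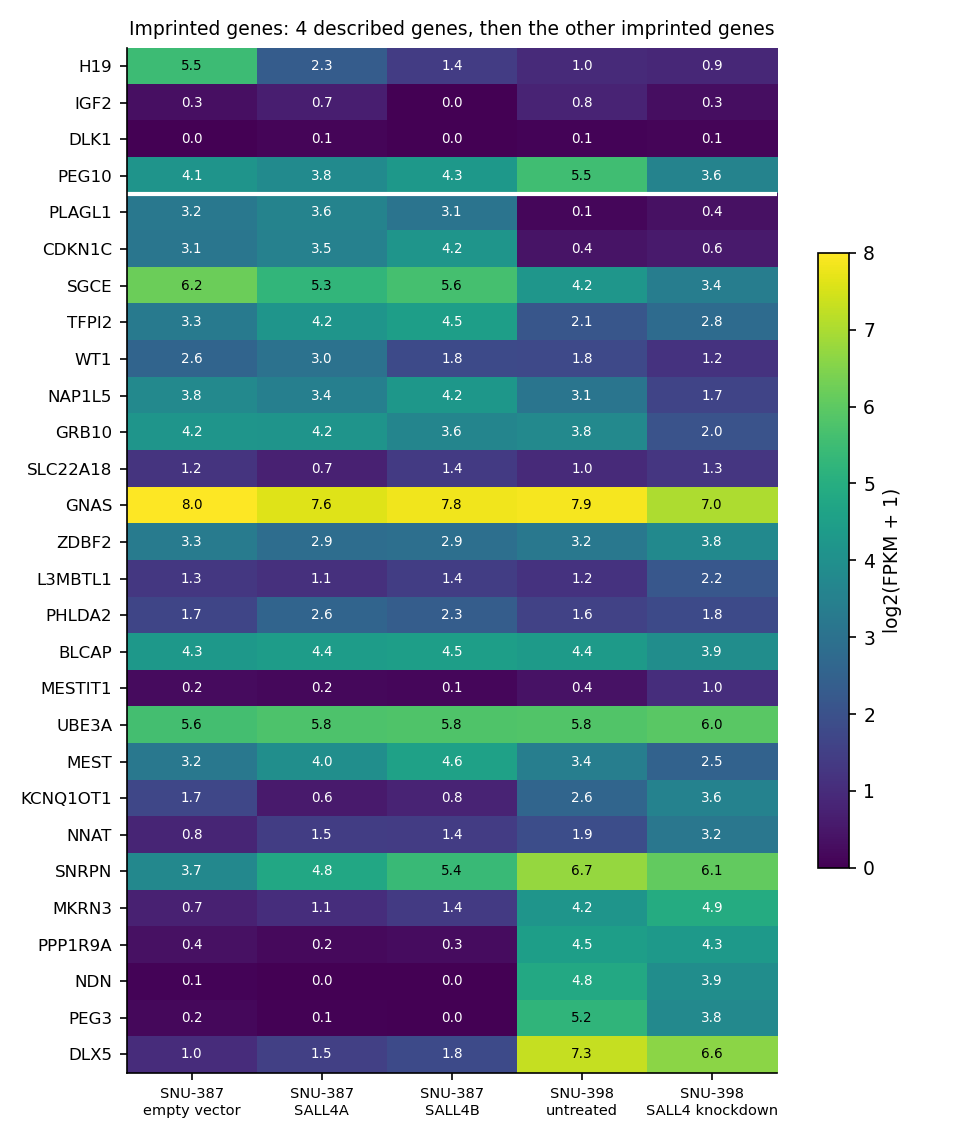
Heat map of log2(FPKM + 1) for the 4 imprinted genes described here (above the white line) and the other imprinted genes at 1 FPKM or more in any library, with 1 column per library. H19 is bright only in the empty vector column (43.7 FPKM), PEG10 is brightest in untreated SNU-398 cells (45.5 FPKM), and NDN, PEG3 and DLX5 are bright only in the SNU-398 columns.

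Of 12 genes for proteins that keep or read imprints, 5 stayed below 1 FPKM in all 5 libraries, among them ZFP57, which guards imprints in the early embryo. Of the 7 tested, PLAG1, a zinc finger activator of IGF2 and H19, was the only one at least 2-fold apart with SALL4A (4.76 to 1.84 FPKM) and with SALL4B (4.76 to 1.03 FPKM). Its relative PLAGL2 was the only one lower after knockdown (21.8 to 7.76 FPKM), against 4 of 7 with a common total FPKM. Over all genes 5.51% were called with SALL4A, 7.99% with SALL4B and 17.9% after knockdown (33.0% with a common total FPKM). CTCF, which insulates IGF2 from its enhancers on the maternal copy, was 31.6, 36.5 and 32.3 FPKM in SNU-387 and 45.2 and 24.8 in SNU-398. DNMT1, which copies DNA methylation at replication, was 44.0, 53.1 and 54.3 FPKM in SNU-387 and 89.2 and 75.01 in SNU-398.

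LIN28B was above 1 FPKM in SNU-398 alone and was higher after SALL4 knockdown as deposited. LIN28B (ENSG00000187772, protein-coding, chr6:104936616-105083332, plus strand) was 0.262 FPKM with empty vector, 0.0888 with SALL4A, 0 with SALL4B, 17.3 in untreated SNU-398 cells and 37.5 after knockdown. The SNU-398 libraries stood far above all 3 SNU-387 libraries, and the knockdown library was the highest. The knockdown level was 2.17-fold that of untreated cells (log2 ratio 1.07), where the share of small nucleolar RNAs was 37.1% against 1.04%. When both libraries were set to a common total FPKM the log2 ratio was 0.43 and no longer reached 2-fold; with 8 other settings it stayed at 2-fold or more, up to 1.20. LIN28A, the paralog active in embryonic stem cells, was 1.06 FPKM untreated and 1.47 after knockdown.

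Of 4 host transcripts of let-7 genes, 3 were at least 2-fold higher after knockdown as deposited. The MIR99AHG transcript, listed under its older name LINC00478, contains the gene of let-7c (chr21:16539828-16539911) and was 3.99 FPKM untreated and 33.4 after knockdown (log2 ratio 2.78). MIRLET7DHG, which contains the gene of let-7d, was 9.44 and 23.96 FPKM (1.26, or 0.64 with a common total FPKM), and the row of MIRLET7BHG, which contains the genes of let-7a-3 and let-7b, was 0.591 and 2.27 FPKM (1.04, or 0.70). The ratio of MIR99AHG was 2.20 with a common total FPKM. MIR100HG, which spans the gene of let-7a-2, was 0.445 and 0.441 FPKM. DROSHA, the nuclear enzyme that cuts microRNA precursors, was lower, at 42.8 and 18.7 FPKM (-1.15). In all, 3 of 12 tested genes of the LIN28 and let-7 list were higher and 1 was lower (33.3%, against 17.9% of all genes), and with a common total FPKM 1 was higher and 1 lower (16.7%, against 33.0%). With SALL4A and with SALL4B, 0 of 9 tested genes of the list were 2-fold apart in either direction, against 5.51% and 7.99% of all genes.

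The IGF2 mRNA-binding proteins differed from one another. IGF2BP1 (which binds and stabilises fetal mRNAs; ENSG00000159217, protein-coding, chr17:48997412-49055650, plus strand) was 6.92 FPKM with empty vector, 11.2 with SALL4A, 12.8 with SALL4B, 67.2 in untreated SNU-398 cells and 34.0 after knockdown. It was higher in both SALL4 libraries than with empty vector and lower after knockdown, without reaching 2-fold: the log2 ratios were 0.62, 0.80 and -0.96. With a common total FPKM the knockdown ratio was -1.62, which passes 2-fold. That was the only 1 of 9 other settings to do so. With a common total without small RNAs the ratio was -0.95.

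IGF2BP3 (ENSG00000136231, protein-coding, chr7:23310209-23470467, minus strand) was 34.1 FPKM with empty vector, 32.4 with SALL4A, 21.0 with SALL4B, 32.7 in untreated SNU-398 cells and 44.1 after knockdown. It varied least of the genes above 5 FPKM, and the lowest library was SALL4B (log2 ratio to empty vector -0.67) and the highest the knockdown (0.42 to untreated, or -0.23 with a common total FPKM). IGF2BP2, the paralog that adult tissues also express, was 34.0, 29.5 and 34.2 FPKM in SNU-387 and 77.5 and 71.6 in SNU-398. All 3 paralogs were thus present in both lines, and IGF2BP1 was the one that differed most between them.

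HMGA2 was lower both with SALL4B in SNU-387 and with knockdown in SNU-398. HMGA2 (a protein that binds the minor groove of AT-rich DNA and is abundant in embryonic tissue; ENSG00000149948, protein-coding, chr12:65824131-65966295, plus strand) was 20.02 FPKM with empty vector, 22.0 with SALL4A, 7.07 with SALL4B, 87.3 in untreated SNU-398 cells and 34.9 after knockdown. It was the highest of the 10 genes in untreated SNU-398 cells. With SALL4B it was 2.83-fold lower than with empty vector (log2 ratio -1.38), and with SALL4A it was close to empty vector (0.13), so SALL4A exceeded SALL4B 3.11-fold (1.51). Knockdown cells held 39.99% of the untreated level (-1.30). Its paralog HMGA1 was 47.7, 54.3 and 29.3 FPKM in SNU-387 and 112 and 81.4 in SNU-398, also lowest with SALL4B. Of the paralogs of the 10 genes, 1 of 7 tested was higher and 1 lower with SALL4A and with SALL4B (GPC4 and GPC6). After knockdown 0 of 9 were higher and 2 lower (GPC1 and GPC6). Over all genes 5.51% were called with SALL4A, 7.99% with SALL4B and 17.9% after knockdown.

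Among listed let-7 targets other than these genes, 4 of 26 tested were lower after knockdown and 1 was higher. This is 19.2%, near the 17.9% of all genes called, and with a common total FPKM 9 were lower and 1 higher (38.5%, against 33.0%). CCND2, a cyclin of G1 phase, was 178 FPKM untreated and 55.6 after knockdown, MYC was 104 and 43.7, and PLAGL2 was 21.8 and 7.76; FIGN, the fourth, was 3.97 and 1.30 FPKM. HAS2, which makes hyaluronan, was 0.389 and 4.51. The median log2 ratio of the 26 was -0.12, against -0.01 over all genes. With SALL4A 0 of 22 were higher and 2 lower, and with SALL4B 1 was higher and 2 lower, against 5.51% and 7.99% of all genes.

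**Figure D4:**
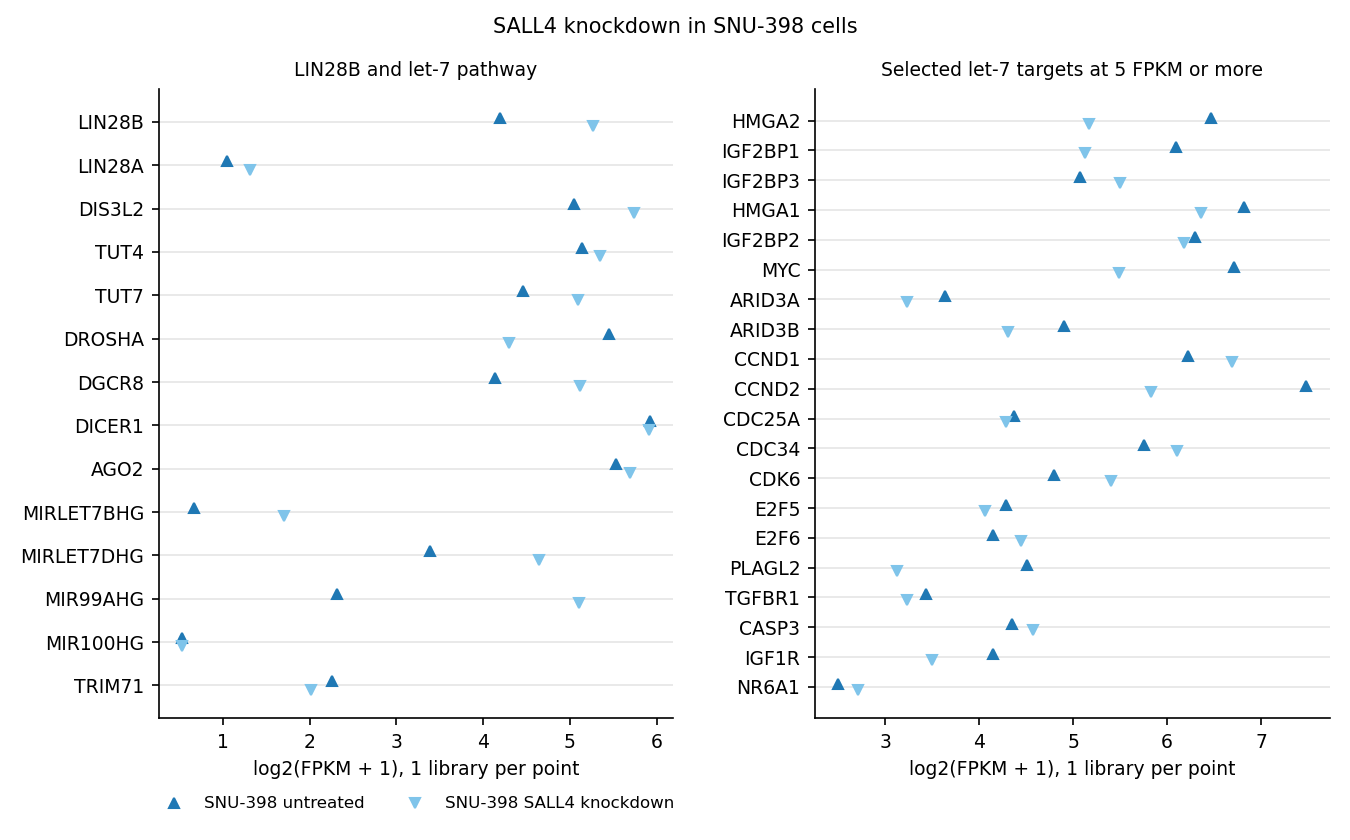
LIN28B with genes of the let-7 pathway (left) and a selection of let-7 targets at 5 FPKM or more (right) in untreated and knockdown SNU-398 cells, as log2(FPKM + 1), 1 point per library. LIN28B and 3 let-7 host transcripts lie further right after knockdown, whereas HMGA2, MYC, CCND2 and PLAGL2 lie further left.

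With overexpression, the 2-fold differences among the tested genes of the 10 were all decreases on the log2(FPKM + 1) scale. Below the filter, IGF2 (2.36-fold) and GPC3 (2.80-fold) were higher and LIN28B (2.95-fold) was lower with SALL4A in FPKM itself. With SALL4B these genes were listed at 0. With SALL4A, 6 of the 10 reached 1 FPKM in either library and 1 was at least 2-fold apart, H19 (lower), where 5.51% of all 12441 genes tested were. With SALL4B, 2 of 5 were apart, H19 and HMGA2 (both lower), against 7.99% of all genes. The median log2 ratio was 0.03 over the 6 genes with SALL4A and -0.67 over the 5 with SALL4B, against 0.01 and 0.03 over all genes. Both medians rest on the same empty vector library, and the 6 and 5 genes are those that passed the filter, not all 10.

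Compared directly, SALL4A and SALL4B differed at 1 of 6 tested genes, HMGA2, against 7.2% of all genes. H19 was 2.36-fold higher with SALL4A on the FPKM scale and 0.89 on the log2(FPKM + 1) scale, just under 2-fold. IGF2BP3 (0.60) and PEG10 (-0.43) lay further inside the threshold. SALL4 itself was 23.1 FPKM with SALL4A and 10.4 with SALL4B, so isoform and level cannot be told apart.

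With knockdown, 3 of 6 tested genes were at least 2-fold apart, LIN28B higher and PEG10 and HMGA2 lower, against 17.9% of all genes. The median over the 6 was -0.60, and over all 13716 genes -0.01. As deposited, GPC3 (-0.24), IGF2BP3 (0.42) and IGF2BP1 (-0.96) missed 2-fold. With a common total FPKM the 2-fold differences were 0 higher and 3 lower, since LIN28B (0.43) dropped out and IGF2BP1 (-1.62) came in. With a common total without small RNAs they were 1 higher and 2 lower, the same counts as deposited.

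Between untreated SNU-398 and empty vector SNU-387 cells, 6 of 7 tested genes were at least 2-fold apart, against 45% of all genes. GPC3 and LIN28B passed the 1 FPKM filter only through SNU-398, and H19 only through the empty vector library, in each case the library where it was high. AFP, IGF2 and DLK1 did not pass it. The 7 are thus a filtered part of the 10, and no conclusion is drawn from the count. GPC3, PEG10, IGF2BP1, LIN28B and HMGA2 were higher in SNU-398 and H19 was lower. The log2 ratios were 3.86 for LIN28B, 3.37 for GPC3, 3.11 for IGF2BP1, 2.07 for HMGA2, 1.41 for PEG10 and -4.52 for H19. At pseudocount 0.1 the ratios of GPC3 and LIN28B were 5.85 and 5.59, so their sizes and order depend on the pseudocount. IGF2BP3 did not differ by 2-fold (-0.06). These are different lines with 1 library each, and the sources used here do not say whether the tables were normalised together.

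**Figure D5:**
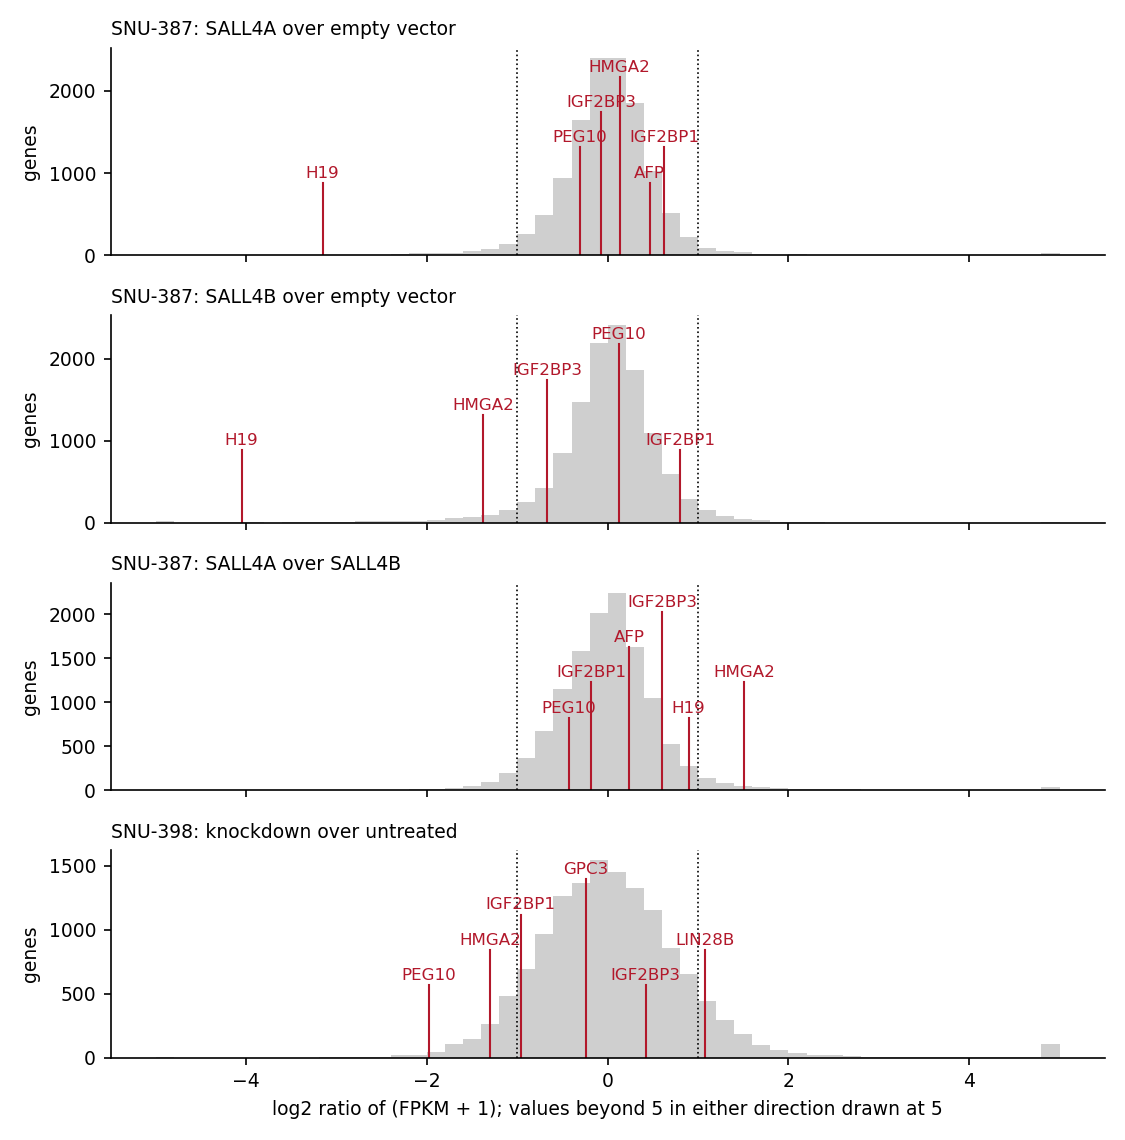
Histograms of the log2 ratio of (FPKM + 1) over all genes at 1 FPKM or more in 4 comparisons, with the tested genes of the set drawn as labelled lines and 2-fold marked by dotted lines. H19 lies far to the left with SALL4A (-3.16) and SALL4B (-4.05), and PEG10 (-1.98), HMGA2 (-1.30) and LIN28B (1.07) lie outside the dotted lines with knockdown.

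The genes with the most similar pattern over the 5 libraries, by the measure used for H19, differed from gene to gene. For PEG10 they were ZNF362, at a root mean square difference of 0.0904, PRKACA and RPARP-AS1. PRKACA, the catalytic subunit of protein kinase A, was 6.95, 6.56 and 9.35 FPKM in SNU-387 and 23.2 and 4.45 in SNU-398. For LIN28B they were ATRNL1 (0.155), CCSER1 and RNF17, each under 0.20 FPKM in SNU-387 and higher after knockdown than in untreated cells. RNF17, a Tudor domain protein of the germ line, was 14.8 FPKM untreated and 27.1 after knockdown.

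For HMGA2 the nearest gene was WLS, the carrier that brings Wnt proteins to the cell surface, at 15.4, 12.1 and 4.15 FPKM in SNU-387 and 43.9 and 21.9 in SNU-398 (difference 0.205). PRKCH and B4GALT6 followed. GPC3 was nearest to LAMA1 (0.0751), NAT8L and PHF21B, which were likewise near 0 in SNU-387. LAMA1, a laminin chain of early basement membranes, was 8.92 FPKM untreated and 7.56 after knockdown. IGF2BP1 was nearest to CCNK (0.0708), ALDH5A1 and ATF5, and IGF2BP3 to CELSR1 (0.0792), PHKA2 and ZNF584. AFP, whose range is small on this scale, was nearest to EFR3A (0.0559), LIMK2 and PI4K2B. With 5 libraries from 2 lines, such likeness is a description of these libraries.

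Of 13 tested genes among other markers of fetal liver and liver cancer, 5 were lower and 1 was higher after knockdown. Over all genes 17.9% were called. With a common total FPKM GOLM1 (log2 ratio -1.31) was lower too, where 33.0% of all genes were called. That list includes SALL4 itself, the target, which counts as lower after knockdown and as higher with SALL4A and SALL4B. Midkine (MDK), a fetal growth factor, was 112 FPKM untreated and 42.9 after knockdown, glutamine synthetase (GLUL) 16.0 and 4.53, and pleiotrophin (PTN), the relative of midkine, 6.45 and 34.8. With SALL4B 5 of 15 were higher and 2 lower (2 and 2 with a common upper quartile), against 7.99% of all genes. The called genes included PROM1, a progenitor surface protein (0.488 FPKM with empty vector and 6.42 with SALL4B), and TPBG, a trophoblast antigen (5.04 and 0.769). With SALL4A 2 of 16 were higher, SALL4 itself and PROM1, and 1 was lower, against 5.51% of all genes. The lower gene was AKR1B10, an aldo-keto reductase raised in liver cancer (102 and 25.8 FPKM).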

How the data were processed

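The authors deposited FPKM for each gene from total RNA libraries (RNeasy Mini, ScriptSeq Complete Gold, per the labels' protocols). Per the submitters' processing notes, the tools were Cuffdiff, Cufflinks, SAMtools and TopHat2 and the builds GRCh38 and hg38. The sources used here do not give the annotation, the strand setting or whether the tables were normalised together. Each table had 26032 rows. After 17 rows with a dash for a name were dropped and 450 symbols that had several rows were summed, 24544 gene names remained.

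Ratios were log2 of (FPKM + 1) over (FPKM + 1), which understates changes of low genes, where either library reached 1 FPKM; 2-fold on this scale was counted. With 1 library per group no test was run. Coordinates and transcript lengths came from GENCODE 29. Depth and fragments came from the steps between low FPKM values, taking 150 bases off each length; 2499 of 3147 low genes (79.4%) fell on whole fragments within 0.05. They cover counting error only. Functions were tested on simulated data.

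The 10 genes and the 14 related lists were chosen with earlier results of these data known. From a list, genes past 2-fold were named, up to 3 per comparison at 2 FPKM or more, with the 2 of highest level. SGCE and other genes named beyond that rule (CDKN1C, NNAT, L3MBTL1, FIGN, HNF4A, IGF1, IGF1R, ZFP57, MIR100HG, LUM, PLAGL1 and the low genes of the DLK1 locus among them) were chosen after their values were seen. For each gene at 1 FPKM in any library, the 3 genes of nearest pattern were named, small RNAs left out. Some genes that these rules select are not reported here. The software was matplotlib 3.10.9, scipy 1.17.1, pandas 2.3.3 and numpy 2.4.6 under Python 3.11.15.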

Additional observations from a re-analysis of the deposited data

How the results depend on the processing

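With 1 library per group no library could be left out and no difference has a replicate check. No paired analysis was possible because each group held 1 library. Counts of the 10 genes were recomputed under 9 other settings (pseudocounts 0.1 and 0.5, no filter, a filter at 5 FPKM, 4 scalings, the largest row of a shared symbol) and under a 1.5-fold threshold, added after the data were seen as were the counts of related lists under these settings. No 2-fold ratio of the 10 genes changed sign. Counts of related lists moved more: with a common upper quartile, SALL4B gave 2 higher and 2 lower of 20 other imprinted genes in place of 4 and 0, and with a common total knockdown gave 0 higher and 5 lower of 9 paralogs in place of 0 and 2. The count for SALL4A over SALL4B was 2 in place of 1 with a common total without small RNAs and with pseudocounts 0.1 and 0.5, because H19 passed 2-fold, and that for SALL4B was 3 in place of 2 with a common upper quartile, because IGF2BP3 did. With a common total the knockdown count stayed 3, but as 0 higher and 3 lower in place of 1 and 2. At 1.5-fold the counts were 2 for SALL4A, 4 for SALL4B, 3 for SALL4A over SALL4B and 4 with knockdown, where 18.5%, 21.4%, 23.1% and 42.1% of all genes were called. Over those 9 settings the H19 ratio ran from -3.41 to -3.04 with SALL4A and from -4.61 to -4.05 with SALL4B, the PEG10 knockdown ratio from -2.61 to -1.87 and the HMGA2 knockdown ratio from -1.95 to -1.18. A common upper quartile moved IGF2BP3 to -1.001 with SALL4B and turned small ratios of HMGA2 with SALL4A (-0.06) and PEG10 with SALL4B (-0.20). A common total moved the median of all genes by -0.60 in the knockdown comparison and by 0.42 between the lines. A common upper quartile moved it by -0.18 with SALL4A and -0.31 with SALL4B. With a common total without small RNAs the shift was 0.013 in the knockdown comparison and 0.16 for SALL4A over SALL4B. The share of called genes that were higher, over all genes, was 41.2% with SALL4A (25.6% with a common upper quartile), 39.2% with SALL4B (16.3%), 53.0% for SALL4A over SALL4B (73.0% without small RNAs), 54.5% with knockdown (11.7% with a common total) and 52.6% between the lines (68.8%). The share of all genes called was 9.36% with SALL4A, 12.4% with SALL4B and 11.7% for SALL4A over SALL4B at pseudocount 0.1 (5.51%, 7.99% and 7.2% at 1), and 33.0% with knockdown under a common total (17.9% as deposited).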
